A study of Mus musculus with 8 samples.

Results

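The genes described here build the coat of caveolae, and all 7 written in the list of members were found in the deposited table of 12528 genes. They are Cav1 and Cav2, which encode caveolins, Ptrf, Sdpr and Prkcdbp, which encode cavin-1, cavin-2 and cavin-3, and Ehd2 and Pacsin2, which encode proteins of the caveolar neck. The rule for members goes by gene name and uses no measured value. RNA was sequenced from mouse embryonic fibroblasts (MEFs) of WT and Cav1KO littermates, 24 h after the cells had been placed at low density on polyacrylamide hydrogels that were either stiff or soft. Genotype and hydrogel were crossed, which gives 4 groups of 2 libraries, named WT stiff, Cav1KO stiff, WT soft and Cav1KO soft. All cells had been immortalized. Cav1KO cells lack a working Cav1 gene, and the labels give no other allele, agent or rescue in any group. The sources used here do not say that the 2 libraries of a group came from separate cultures, so the p-values measure the spread between these libraries, which may be technical. They also name no more than 1 cell population per genotype, so the genotype and the particular immortalized cells cannot be told apart.

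Caveolae are flask-shaped pits of the plasma membrane, abundant in fibroblasts, adipocytes, endothelium and muscle, that flatten when membrane tension rises. Caveolin-1 is a cholesterol-binding membrane protein without which fibroblasts form no caveolae, and caveolin-2 forms mixed oligomers with it. Cavin-1 is the obligate peripheral coat protein, onto which cavin-2 and cavin-3 assemble in separate complexes. The ATPase EHD2 forms a ring at the neck that holds the pit at the surface, and pacsin-2 is an F-BAR protein that binds and bends membrane there.

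The values are TMM-normalized CPM, in which the reads of a gene are set against the size of the library after a scaling that keeps very abundant genes from dominating. The reads recovered for the listed genes summed to 17089836 to 19944952 per library. A count of 0 to 3 reads corresponds to at most 0.151 to 0.181 CPM. The 10 most abundant genes took 7.17% to 9.10% of the signal. Of 10 fibroblast markers 9 were listed, with a summed level of 8605 to 8870 CPM in WT stiff, 10636 to 10884 CPM in WT soft, 4301 to 5463 CPM in Cav1KO stiff and 13321 to 13362 CPM in Cav1KO soft libraries. Thy1 was not among the listed genes, and none of the 9 was at 0. None of 8 endothelial, 6 skeletal muscle or 6 epithelial markers was listed. Of 6 adipocyte markers only Retn was listed, at 0.285 to 7.82 CPM, and Adipoq and Plin1 were not. Of 6 macrophage markers, Cd68 and Cd14 were listed and Ptprc and Csf1r were not, and their summed level was 24.9 to 40.4 CPM in WT and 92.8 to 104 CPM in Cav1KO libraries, nearly all of it Cd14. In bulk RNA, fewer cells of a type and less RNA per cell cannot be told apart.

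The promoters of 5 members are shown because these genes, Cav1 aside, moved in opposite directions between the genotypes, as the values below show. Each sequence runs 5′ to 3′ on the gene's strand over the 300 bases around the RefSeq transcription start, most of them upstream of it (GRCm38.p6), and capitals mark matches on either strand to GGAATG (bound by TEAD factors), GGGCGG (the GC box of SP1 and KLF factors), TGANTCA (AP-1), the TATA box, searched as the letters TATAAA, or the CArG box of SRF, searched by its consensus.
Cav1 (chr6:17306085-17306384, plus strand): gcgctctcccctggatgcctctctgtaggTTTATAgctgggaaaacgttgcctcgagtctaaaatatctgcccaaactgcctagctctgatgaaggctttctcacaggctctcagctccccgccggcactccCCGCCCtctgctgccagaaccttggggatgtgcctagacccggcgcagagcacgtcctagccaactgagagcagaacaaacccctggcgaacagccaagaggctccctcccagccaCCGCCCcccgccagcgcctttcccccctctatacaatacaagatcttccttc
Cav2 (chr6:17280935-17281234, plus strand): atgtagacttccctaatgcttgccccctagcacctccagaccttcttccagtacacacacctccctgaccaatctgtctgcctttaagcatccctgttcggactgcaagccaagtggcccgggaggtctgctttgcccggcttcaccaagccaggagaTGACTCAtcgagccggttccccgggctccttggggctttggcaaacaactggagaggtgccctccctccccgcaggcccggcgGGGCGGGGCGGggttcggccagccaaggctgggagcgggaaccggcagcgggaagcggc
Ptrf (chr11:100970568-100970867, minus strand): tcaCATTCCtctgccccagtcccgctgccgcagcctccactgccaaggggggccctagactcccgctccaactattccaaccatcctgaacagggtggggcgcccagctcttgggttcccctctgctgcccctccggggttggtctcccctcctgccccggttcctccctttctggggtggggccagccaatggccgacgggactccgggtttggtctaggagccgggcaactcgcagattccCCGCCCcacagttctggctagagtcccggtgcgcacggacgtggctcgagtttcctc
Sdpr (chr1:51288876-51289175, plus strand): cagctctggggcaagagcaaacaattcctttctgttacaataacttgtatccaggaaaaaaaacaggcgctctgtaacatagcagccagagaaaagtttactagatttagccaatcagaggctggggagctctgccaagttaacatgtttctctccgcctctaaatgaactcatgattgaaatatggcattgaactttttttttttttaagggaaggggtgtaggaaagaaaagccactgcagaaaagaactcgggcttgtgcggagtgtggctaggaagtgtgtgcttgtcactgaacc
Pacsin2 (chr15:83464557-83464856, minus strand): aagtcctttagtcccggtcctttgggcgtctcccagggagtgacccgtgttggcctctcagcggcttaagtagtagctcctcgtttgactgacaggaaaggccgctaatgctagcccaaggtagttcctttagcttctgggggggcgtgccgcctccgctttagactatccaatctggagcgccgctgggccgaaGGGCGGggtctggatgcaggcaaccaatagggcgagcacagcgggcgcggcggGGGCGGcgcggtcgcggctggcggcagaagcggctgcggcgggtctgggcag

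Cav1, Ptrf and Pacsin2 each have further annotated promoters, and only the first is printed. In Cav1 the GC box was found at positions -118 and -2 and the TATA box at position -221, counted from the start. In Cav2 an AP-1 match lay at position -92 and overlapping GC boxes at -9 and -4, and in Ptrf a TEAD match lay at -247 and a GC box at -7. The Pacsin2 promoter held GC boxes at -55 and -2. The Sdpr promoter held no match to any of the 5 motifs and had 43.3% GC and 4 CpG dinucleotides, beside 59.3% and 13 for Cav1, 64.3% and 16 for Cav2, 66.7% and 17 for Ptrf and 65.3% and 27 for Pacsin2. Ehd2 (not printed) had 62.0% GC and GC boxes at -226 and 14. Over all 32851 mouse promoters of the same length the median was 52.7% GC and 7 CpG, and the motifs were found in 14.7% (TEAD), 35.7% (GC box), 7.81% (AP-1), 13.6% (TATA box) and 1.63% (CArG box). A match describes letters only.

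Each member was compared between stiff and soft hydrogels within a genotype, and between genotypes on each hydrogel, with limma on log2(CPM + 1) and Benjamini-Hochberg adjustment over 12494 genes. These comparisons share libraries with each other. A gene was called at an adjusted p below 0.05, and fold changes are given as log2 values with their standard error (SE). On the stiff hydrogel 2 of 7 members were higher and 2 lower in WT cells, where 22.1% of all genes tested were called higher and 26.3% lower. In Cav1KO cells 1 member was higher and 3 were lower on the stiff hydrogel, beside 27.9% and 28.2% of all genes. Between the genotypes, 1 member was higher and 4 were lower in Cav1KO cells on the stiff hydrogel, Cav1 included, beside 25.0% and 26.6% of all genes. On the soft hydrogel 2 members were higher and 4 lower in Cav1KO cells, beside 24.1% and 29.9%. Without Cav1, the median log2 difference between genotypes of the 6 other members was -0.43 on the stiff and -0.22 on the soft hydrogel, with -0.03 over all genes on each. The median of the 6 for the stiffness effect was -0.02 in WT and -0.24 in Cav1KO cells, with -0.02 over all genes in both.

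**Figure D1:**
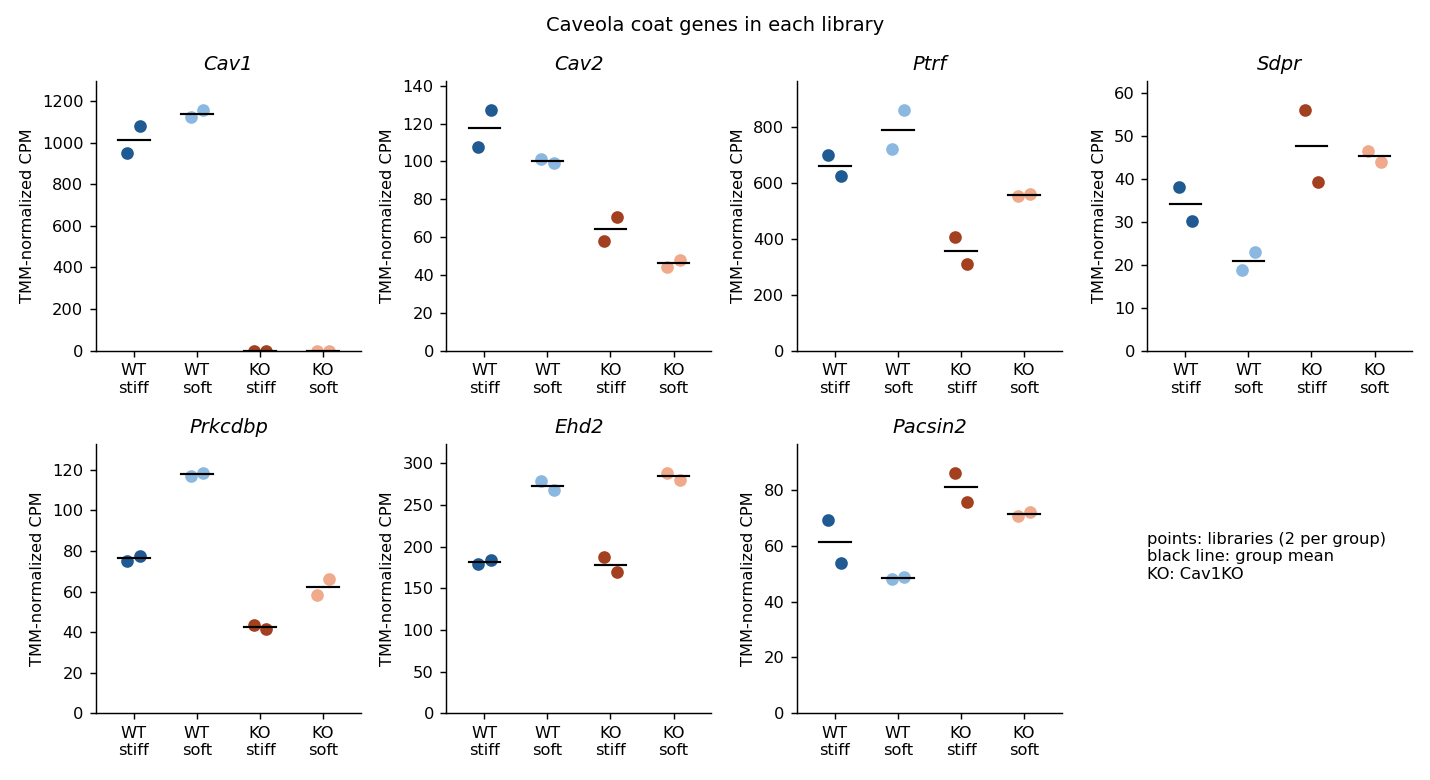
TMM-normalized CPM of each coat gene (y axis, from 0, a separate scale per gene) in the 4 groups (x axis), with points for the 2 libraries of a group and a black line for their mean. Cav1 is at the floor in Cav1KO cells, Cav2, Ptrf and Prkcdbp are lower and Sdpr and Pacsin2 higher there than in WT cells on the same hydrogel, and Ehd2 separates by hydrogel.

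Cav1 (ENSMUSG00000007655, GRCm38 chr6:17306335-17341452, plus strand) was the most abundant member in WT cells. WT cells had 949.8 and 1079 CPM on the stiff and 1122 and 1157 CPM on the soft hydrogel. In the Cav1KO libraries it was at 0.294 and 0.219 CPM on the stiff and at 0.0523 and 0.411 CPM on the soft hydrogel. These values come from 5, 4, 1 and 8 reads, so the labels of all 4 Cav1KO libraries hold. The 9 reads of the Cav1KO stiff group set against 37839 of the WT stiff group give 0.0253% of the WT level (exact Clopper-Pearson 95% interval 0.0116% to 0.0480%), and 9 against 40101 on the soft hydrogel give 0.0205% (0.00935% to 0.0388%). These intervals cover counting error only. In WT cells the stiff libraries lay below the soft ones, with a log2 difference of -0.17 (SE 0.14, adjusted p = 0.342) that did not pass the test and a 95% interval from -0.49 to 0.15. That value was -0.08 without WT stiff replicate 1 and -0.26 without WT stiff replicate 2. In Cav1KO cells the fitted stiffness effect of Cav1 rests on 1 to 8 reads per library and is not described.

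Cav2 (ENSMUSG00000000058, chr6:17281185-17289115, plus strand), which starts 25.2 kb before Cav1 on the same strand, was lower in Cav1KO cells. It was at 107.7 and 127.2 CPM in the stiff and 101.6 and 98.9 CPM in the soft WT libraries, and at 58.1 and 70.7 CPM in the stiff and 44.3 and 47.9 CPM in the soft Cav1KO libraries. Every Cav1KO library was below every WT library. The log2 difference between genotypes was -0.86 (SE 0.11, adjusted p = 0.000350) on the stiff and -1.10 (SE 0.11, adjusted p = 7.43e-05) on the soft hydrogel. In Cav1KO cells Cav2 was also 1.38-fold higher on the stiff than on the soft hydrogel (log2 0.47, adjusted p = 0.00789), with no overlap between libraries. That call was lost without Cav1KO soft replicate 1 (log2 0.41, adjusted p = 0.0618). In WT cells the stiffness difference of Cav2 was 0.22 (95% interval -0.04 to 0.48, adjusted p = 0.142), with 0.34 without WT stiff replicate 1 and 0.10 without WT stiff replicate 2. For both caveolins, an antisense transcript, Gm15581, overlaps the gene on the other strand. The sources used here do not state strand-specific counting, so reads of both strands cannot be told apart. No stretch of 60 nt of the Cav1 or Cav2 transcripts occurred in an annotated transcript of another gene, on either strand.

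Ptrf (ENSMUSG00000004044, chr11:100956733-100970887, minus strand), the gene of cavin-1, was the next most abundant member. It was at 697.2 and 623.2 CPM in the stiff and 719.8 and 859.8 CPM in the soft WT libraries, and at 405.6 and 309.9 CPM in the stiff and 551.9 and 560.2 CPM in the soft Cav1KO libraries. All 4 Cav1KO libraries were below all 4 WT libraries, and within each genotype the stiff libraries were below the soft ones. On the stiff hydrogel Ptrf fell by 0.89 on the log2 scale in Cav1KO cells (SE 0.13, adjusted p = 0.000705). On the soft hydrogel the difference was -0.50 (SE 0.13, adjusted p = 0.0131), a call that was lost without WT soft replicate 2 (log2 -0.37, adjusted p = 0.0960), without Cav1KO soft replicate 1 (adjusted p = 0.0683), without Cav1KO soft replicate 2 (adjusted p = 0.0584) and under quantile normalization (log2 -0.30, adjusted p = 0.115). In Cav1KO cells Ptrf was 1.57-fold lower on the stiff hydrogel (log2 -0.65, adjusted p = 0.00357). In WT cells the stiffness difference was -0.25 (95% interval -0.56 to 0.05, adjusted p = 0.151), with -0.38 without WT soft replicate 1 and -0.13 without WT soft replicate 2. The fibroblast markers were also lower in sum on the stiff hydrogel in both genotypes, and their part in this result was not tested.

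Prkcdbp (ENSMUSG00000037060, chr7:105480083-105482300, minus strand), the gene of cavin-3, a protein that also binds protein kinase C delta, moved with both factors. It was at 75.2 and 77.6 CPM in the stiff and 116.8 and 118.6 CPM in the soft WT libraries, and at 43.3 and 41.8 CPM in the stiff and 58.2 and 66.0 CPM in the soft Cav1KO libraries. The 4 groups did not overlap. Prkcdbp was 1.53-fold lower on the stiff hydrogel in WT cells (log2 -0.62, SE 0.08, adjusted p = 0.000470) and 1.45-fold lower in Cav1KO cells (log2 -0.53, SE 0.08, adjusted p = 0.000730). In Cav1KO cells it was 1.78-fold lower than in WT cells on the stiff (adjusted p = 5.99e-05) and 1.89-fold lower on the soft hydrogel (adjusted p = 3.13e-05). An unlisted transcript on the other strand, Gm45667, shares 19.7% of the 60-nt windows of Prkcdbp. How many of the reads counted for Prkcdbp this concerns was not measured. Of the other members, 0.134% of the windows of Pacsin2 and none of the rest occurred in another gene.

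Sdpr (ENSMUSG00000045954, chr1:51289126-51302960, plus strand), the gene of cavin-2, went the other way. It was at 38.0 and 30.0 CPM in the stiff and 18.7 and 22.9 CPM in the soft WT libraries, and at 56.0 and 39.2 CPM in the stiff and 46.3 and 44.0 CPM in the soft Cav1KO libraries. The WT soft libraries were lowest and all Cav1KO libraries were above all WT libraries. On the soft hydrogel Sdpr was 2.13-fold higher in Cav1KO cells (log2 1.09, SE 0.18, adjusted p = 0.00107). On the stiff hydrogel the difference of 0.46 (SE 0.18, 95% interval 0.05 to 0.87) did not pass the test (adjusted p = 0.0602). It passed under median centring (adjusted p = 0.0283), under quantile normalization (adjusted p = 0.0456) and in DESeq2 (adjusted p = 0.0197). The value was 0.71 without Cav1KO stiff replicate 2, 0.21 without Cav1KO stiff replicate 1 and 0.30 without WT stiff replicate 2. In WT cells Sdpr was 1.61-fold higher on the stiff hydrogel (log2 0.68, SE 0.18, adjusted p = 0.0136), a call that was lost without WT stiff replicate 1 (log2 0.52, adjusted p = 0.0929) or without WT soft replicate 1 (log2 0.54, adjusted p = 0.106). In Cav1KO cells, where the stiff libraries spanned the soft ones, the difference was 0.05 (95% interval -0.36 to 0.46, adjusted p = 0.827). An antisense transcript, 9330175M20Rik, overlaps Sdpr, and it was not listed.

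Ehd2 (ENSMUSG00000074364, chr7:15946958-15967567, minus strand), the neck ATPase, separated by hydrogel. It was at 178.8 and 184.5 CPM in WT stiff and at 187.4 and 169.8 CPM in Cav1KO stiff libraries. On the soft hydrogel it was at 278.3 and 267.7 CPM in WT and at 288.8 and 280.4 CPM in Cav1KO libraries. All 4 stiff libraries were below all 4 soft ones. Ehd2 was lower on the stiff hydrogel in WT cells (log2 -0.58, SE 0.07, adjusted p = 0.000340) and 1.59-fold lower in Cav1KO cells (log2 -0.67, SE 0.07, adjusted p = 0.000115). The genotype difference did not pass the test on either hydrogel and its 95% interval ran from -0.19 to 0.14 on the stiff and from -0.10 to 0.23 on the soft hydrogel.

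Pacsin2 (ENSMUSG00000016664, chr15:83375607-83464606, minus strand) was higher in Cav1KO cells. It was at 69.0 and 53.9 CPM in the stiff and 48.0 and 48.7 CPM in the soft WT libraries, and at 86.1 and 75.7 CPM in the stiff and 70.5 and 72.1 CPM in the soft Cav1KO libraries. Every Cav1KO library was above every WT library. The log2 difference between genotypes was 0.55 on the soft hydrogel (SE 0.12, adjusted p = 0.00433) and 0.40 on the stiff hydrogel (SE 0.12, adjusted p = 0.0210). The stiff call was lost without WT stiff replicate 2 (log2 0.22, adjusted p = 0.125) and without Cav1KO stiff replicate 1 (log2 0.31, adjusted p = 0.0912). The stiffness effect in WT cells passed the test narrowly (log2 0.33, SE 0.12, adjusted p = 0.0469). It rested on WT stiff replicate 1, without which it was 0.15 (adjusted p = 0.297). Without WT stiff replicate 2 it was 0.50 (adjusted p = 0.00931). It was also not called without either WT soft library, without either Cav1KO soft library, without a mean-variance trend or under quantile normalization, with adjusted p-values up to 0.162. In Cav1KO cells the effect was 0.18 (95% interval -0.09 to 0.45, adjusted p = 0.233).

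**Figure D2:**
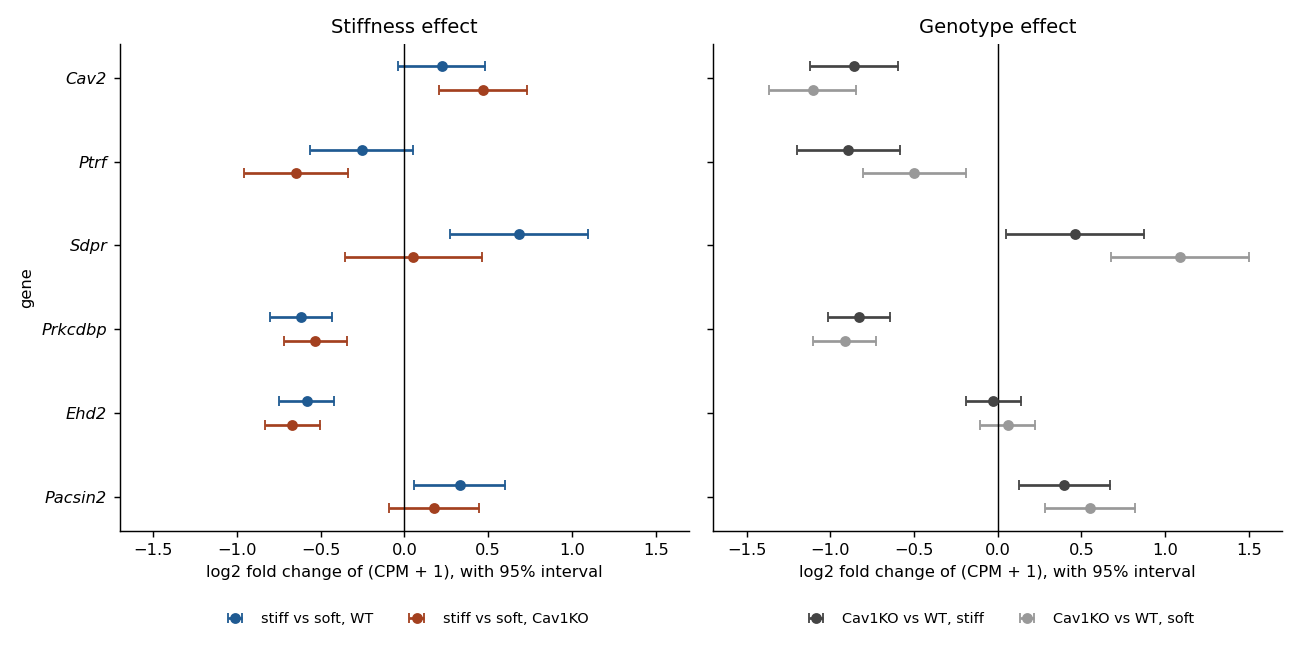
Log2 fold changes on the log2(CPM + 1) scale (x axis) of the 6 members other than Cav1 (y axis), stiff against soft on the left and Cav1KO against WT on the right, with bars for the 95% interval of the limma fit. Prkcdbp and Ehd2 lie below 0 in both genotypes on the left, and on the right Cav2, Ptrf and Prkcdbp lie below 0, Sdpr and Pacsin2 above it and Ehd2 at it.

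The stiffness effect was then compared between the genotypes. In limma none of the 7 members was called, beside 10.5% of all genes called in either direction in this test. In limma 1 member had an unadjusted p below 0.05, and the share of all genes below it was not computed. In edgeR and in DESeq2 the count of members called was also 0, beside 902 and 1500 of the 12494 genes. Sdpr had the largest difference between stiffness effects, with 0.63 more in WT than in Cav1KO cells on the log2 scale (95% interval 0.05 to 1.21, adjusted p = 0.121). For Ptrf the difference was 0.39 (95% interval -0.04 to 0.83, adjusted p = 0.179). Both depended on the Cav1KO stiff libraries, with 0.88 for Sdpr and 0.59 for Ptrf without replicate 1, and 0.38 and 0.20 without replicate 2. These 2 libraries differed most within a group (chi-square per degree of freedom of the reads 18.1, beside 3.49 to 14.9 in the other groups). A fit without 1 of them drops this difference from the estimate of the spread that all groups share. A call gained in such a fit is therefore not read as a difference. The intervals of the others, Cav1 aside, ran from -0.62 to 0.12 for Cav2, from -0.35 to 0.18 for Prkcdbp, from -0.15 to 0.32 for Ehd2 and from -0.23 to 0.53 for Pacsin2. Stiffness calls of Cav2, Ptrf, Sdpr and Pacsin2 that passed in 1 genotype and not in the other are therefore not shown to differ.

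To compare genes with each other, CPM were divided by the length of the longest coding transcript in the annotation, which was 1662 nt for Prkcdbp and 5119 nt for Ehd2. The mean level per kb in WT stiff cells was 369 CPM for Cav1, 189 CPM for Ptrf, 46.0 CPM for Prkcdbp, 43.0 CPM for Cav2, 35.5 CPM for Ehd2, 16.6 CPM for Pacsin2 and 11.1 CPM for Sdpr. Prkcdbp and Cav2 overlapped between libraries in that order, and the other neighbours did not. In WT soft cells Ehd2 (53.3 CPM per kb) stood above Cav2 (36.7 CPM per kb), and no neighbours in the order overlapped. In Cav1KO cells Ptrf led on both hydrogels, at 102 CPM per kb on the stiff and 159 CPM per kb on the soft hydrogel, followed by Ehd2 (34.9 and 55.6) and Prkcdbp (25.6 and 37.4). Cav2 overlapped with both Prkcdbp and Pacsin2 in the Cav1KO stiff libraries, and in the Cav1KO soft libraries it stood at 16.9 CPM per kb, below Pacsin2 at 19.3 and above Sdpr at 14.8. These positions depend on the length used. With the union of exons, mean Cav2 stood below both in Cav1KO soft cells. It was at 13.8 CPM per kb, beside 14.5 for Pacsin2 and 14.8 for Sdpr. In these libraries Pacsin2 overlapped with both Cav2 and Sdpr. In WT stiff cells Cav2 (35.2) overlapped with Ehd2 (35.5) and Pacsin2 (12.5) with Sdpr (11.1).

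Summed per length over the 7 genes, the coat stood at 696 to 848 CPM per kb in WT and at 206 to 307 CPM per kb in Cav1KO libraries. Cav1 made up 49.7% to 54.2% of the WT sum. Without Cav1 the sum was 332 to 427 CPM per kb in WT and 206 to 306 CPM per kb in Cav1KO libraries, so it also did not overlap between the genotypes. Ptrf was 24.6% to 29.0% of the sum in WT and 43.0% to 52.7% in Cav1KO libraries, and Ehd2 4.97% to 6.83% and 15.1% to 18.8%. The sum loses Cav1 in Cav1KO libraries, which by itself raises the shares of the other genes. Per kb, mean Ptrf was 102 and 159 CPM in Cav1KO cells on the stiff and soft hydrogel, beside 189 and 226 CPM in WT. Ehd2 was at 34.9 and 55.6 CPM per kb in Cav1KO cells, beside 35.5 and 53.3 in WT. The balance between the minor cavins, which leaves Cav1 out, differed between the groups. In CPM per kb, the ratio of Prkcdbp to Sdpr was 3.64 and 4.75 in WT stiff and 11.5 and 9.52 in WT soft libraries. It was 1.42 and 1.96 in Cav1KO stiff and 2.31 and 2.76 in Cav1KO soft libraries. This ratio was highest in WT soft and lowest in Cav1KO stiff cells, and the 4 groups did not overlap. The ratio of Cav2 to Cav1 in WT cells was 0.114 and 0.118 on the stiff and 0.0910 and 0.0859 on the soft hydrogel.

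**Figure D3:**
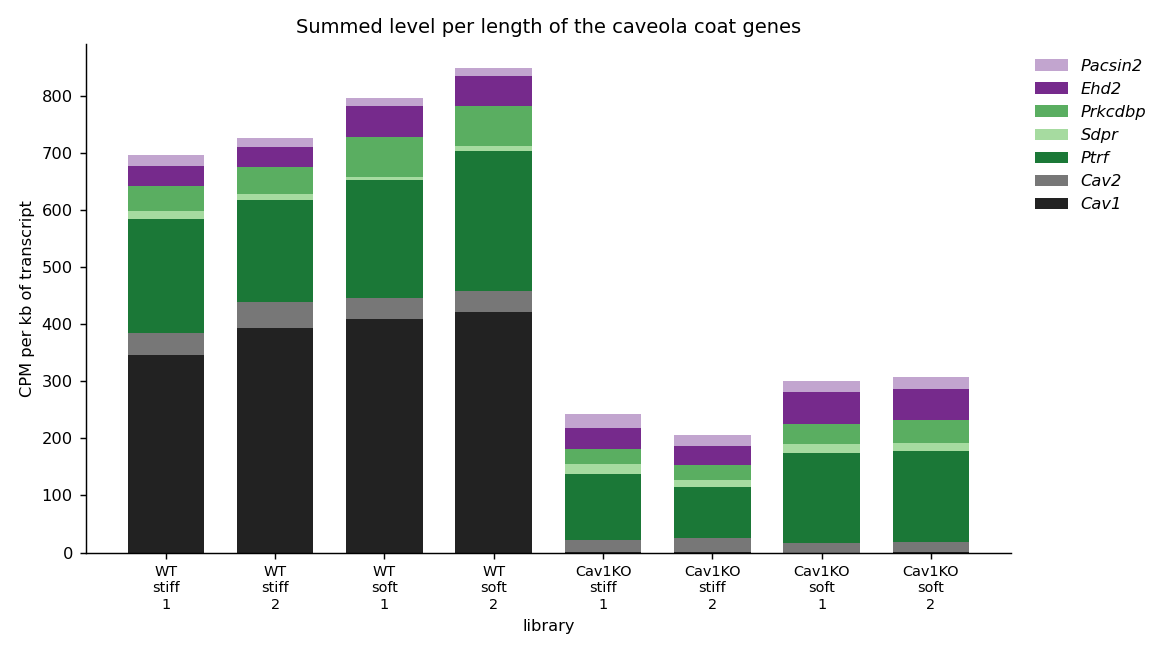
Stacked bars of the level per length of the 7 coat genes (y axis, CPM per kb of the longest coding transcript) in each of the 8 libraries (x axis). Cav1 is the largest block in all WT libraries (49.7% to 54.2%), and without it Ptrf is the largest in the Cav1KO libraries (43.0% to 52.7%).

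Cav2 lies next to the deleted gene, so all tested genes that start within 500 kb of Cav1 were examined. On the side of Cav2, Tes, whose product testin is a LIM domain protein of focal adhesions, starts before Cav1, at -241 kb from its start. Tes was at 175.3 and 185.5 CPM in the stiff and 180.7 and 172.5 CPM in the soft WT libraries, and at 87.7 and 100.6 CPM in the stiff and 83.0 and 88.8 CPM in the soft Cav1KO libraries. The Cav1KO libraries were all below the WT libraries, with a log2 difference of -0.93 (SE 0.09, adjusted p = 3.89e-05) on the stiff and -1.03 (SE 0.09, adjusted p = 2.05e-05) on the soft hydrogel. On the other side, Met, the hepatocyte growth factor receptor, starts 157 kb after Cav1. Met was at 90.8 and 75.9 CPM in the stiff and 69.6 and 65.5 CPM in the soft WT libraries, and at 65.3 and 49.4 CPM in the stiff and 125.7 and 118.4 CPM in the soft Cav1KO libraries. It was lower in Cav1KO cells on the stiff hydrogel (log2 -0.54, adjusted p = 0.00967) and higher on the soft hydrogel (log2 0.84, adjusted p = 0.000896), and the stiffness effect differed between the genotypes by 1.38 (adjusted p = 0.00752). The stiff call was lost without WT stiff replicate 1 (log2 -0.41, adjusted p = 0.0730), its value without Cav1KO stiff replicate 2 was -0.34 (adjusted p = 0.0452), and the difference between stiffness effects without Cav1KO soft replicate 1 (1.34, adjusted p = 0.0534). Capza2, an actin capping protein gene 330 kb after Cav1, was higher in Cav1KO cells on the stiff hydrogel (log2 0.43, adjusted p = 0.00162), and on the soft hydrogel the difference was 0.13 (adjusted p = 0.178), which passed under quantile normalization (0.17, adjusted p = 0.0448). St7, 387 kb after Cav1, was higher on both (log2 0.59, adjusted p = 0.00181, and 0.36, adjusted p = 0.0191), and the soft call was lost in DESeq2 (adjusted p = 0.0525) and without WT soft replicate 1 or either Cav1KO soft library (adjusted p up to 0.100). Tes and Cav2, before Cav1, had lower values in Cav1KO cells on both hydrogels. The genes after Cav1 did not share a direction on the stiff hydrogel. On the soft hydrogel all of them had higher values, of which that of Capza2 did not pass the test. Of all genes tested, 25.0% were called higher and 26.6% lower in Cav1KO cells on the stiff hydrogel. The shares on the soft hydrogel were 24.1% and 29.9%. A link of these directions with position was not tested.

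**Figure D4:**
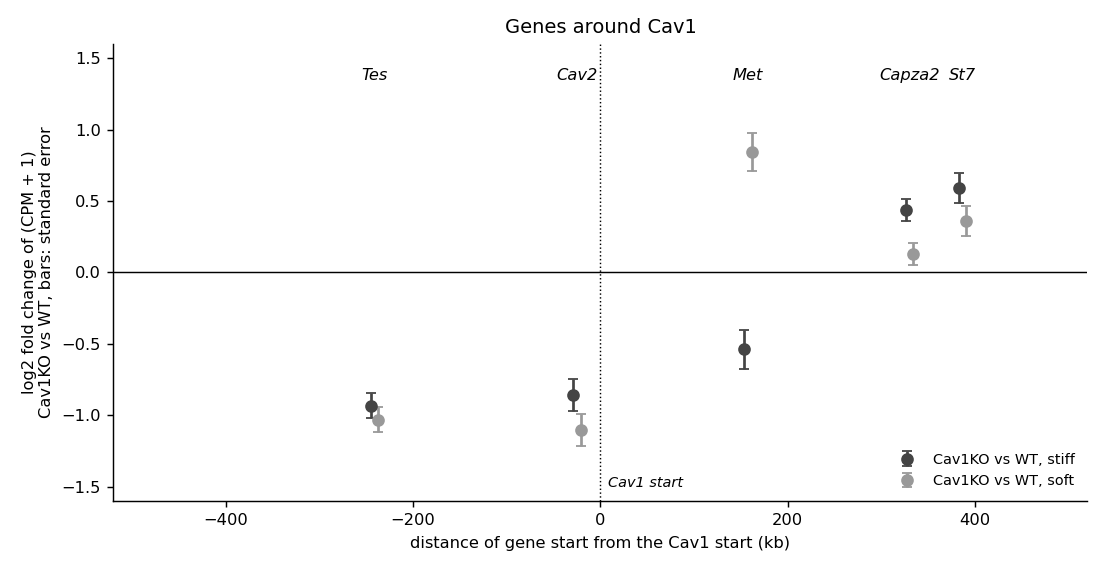
Log2 difference between Cav1KO and WT cells on the log2(CPM + 1) scale (y axis, bars for the SE) of the tested genes within 500 kb of Cav1, by the distance of their start from the Cav1 start (x axis, in kb), dark on the stiff and light on the soft hydrogel. Tes (-0.93 and -1.03) and Cav2 (-0.86 and -1.10) lie near each other, and Met is lower on the stiff (-0.54) and higher on the soft hydrogel (0.84).

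Of 7 relatives of the coat genes 5 were listed, and Cav3 and Pacsin1 were not among them. Between the genotypes, 4 of the 5 were lower in Cav1KO cells on each hydrogel and none was higher, beside 26.6% of all genes lower on the stiff and 29.9% on the soft hydrogel. The median log2 difference of the 5 was -0.31 on the stiff and -0.59 on the soft hydrogel, with -0.03 over all genes on each. The largest fall was in Murc, the gene of cavin-4, which is best known as the muscle cavin. It was at 9.09 and 8.09 CPM in WT stiff and at 16.1 and 18.1 CPM in WT soft libraries, while the Cav1KO stiff libraries had 3 and 4 reads and the Cav1KO soft libraries 1 read each. Set against 323 reads in WT stiff cells, the 7 reads of Cav1KO stiff cells give 2.30% of the WT level (exact Clopper-Pearson 95% interval 0.919% to 4.80%), and the 2 reads of Cav1KO soft cells against 603 give 0.302% (0.0365% to 1.10%), intervals that again cover counting error only. The fitted differences of -3.00 (adjusted p = 7.47e-07) and -4.10 (adjusted p = 1.21e-07) depend on the pseudocount at these levels. In WT cells Murc was lower on the stiff hydrogel (log2 -0.91, adjusted p = 0.00100).

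Among the EHD and pacsin relatives, Ehd1, a recycling endosome ATPase, was at 180.4 and 173.3 CPM in the stiff and 139.7 and 144.1 CPM in the soft WT libraries, and at 148.4 and 144.3 CPM in the stiff and 90.5 and 97.2 CPM in the soft Cav1KO libraries. It was higher on the stiff hydrogel in WT (log2 0.32, adjusted p = 0.00590) and in Cav1KO cells (log2 0.64, adjusted p = 0.000122), the opposite direction to Ehd2. Ehd3, at 8.28 CPM at most, was lower on the stiff hydrogel (log2 -1.004, adjusted p = 0.00132, in WT and -0.81, adjusted p = 0.00309, in Cav1KO cells) and lower in Cav1KO cells on each hydrogel. At this level the size depends on the pseudocount, and with 5 CPM the stiffness values were -0.60 and -0.35. Pacsin3 (chosen after its values were seen) was lower on the stiff hydrogel in both genotypes, by 0.68 and 0.45 on the log2 scale, whereas Pacsin2 was higher there in WT cells. Ehd4 passed no test.

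Of 22 genes written as partners of caveolae, kinases and actin linkers that meet the coat, receptors held in it, and flotillins as a neighbouring membrane system, 19 were listed. In WT cells 2 were higher and 6 lower on the stiff hydrogel, with a median of -0.07, beside 22.1% and 26.3% of all genes. In Cav1KO cells 2 were higher and 9 lower, with a median of -0.24, beside 27.9% and 28.2%. Flna, the actin crosslinker filamin A that binds caveolin-1, was at 1957 and 1544 CPM in the stiff and 1070.0 and 1255 CPM in the soft WT libraries, and at 1154 and 844.7 CPM in the stiff and 1107 and 1118 CPM in the soft Cav1KO libraries. The WT stiff libraries stood above all others, and Flna was higher on the stiff hydrogel in WT cells (log2 0.58, adjusted p = 0.0175) and lower in Cav1KO than in WT cells there (log2 -0.82, adjusted p = 0.00325). The first call was lost without WT stiff replicate 1 (0.41, adjusted p = 0.115) or without WT soft replicate 1 (0.47, adjusted p = 0.127). Flot1, the gene of flotillin-1, was at 23.2 and 23.8 CPM in the stiff and 53.2 and 44.1 CPM in the soft WT libraries, and at 35.8 and 34.3 CPM in the stiff and 67.0 and 71.0 CPM in the soft Cav1KO libraries. It was lower on the stiff hydrogel in WT cells (log2 -1.01, SE 0.10, adjusted p = 0.000155), as Ehd2 and Prkcdbp were, and the 4 groups did not overlap.

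Between the genotypes, 4 of the 19 partners were higher and 7 lower in Cav1KO cells on the stiff hydrogel (median -0.14), beside 25.0% and 26.6% of all genes. On the soft hydrogel 8 were higher and 6 lower (median -0.06), beside 24.1% and 29.9%. Ror1, a receptor kinase-like protein that has been described as a scaffold for caveolar proteins, was at 3.01 and 2.17 CPM in the stiff and 4.29 and 3.87 CPM in the soft WT libraries, and at 6.41 and 6.14 CPM in the stiff and 14.2 and 14.4 CPM in the soft Cav1KO libraries. Its log2 difference between genotypes was 1.03 (adjusted p = 0.000588) on the stiff and 1.59 (adjusted p = 4.30e-05) on the soft hydrogel, and with a pseudocount of 5 CPM the first was 0.57. Rhoa, the small GTPase that drives actin stress fibres, was at 644.8 and 726.3 CPM in the stiff and 657.5 and 624.9 CPM in the soft WT libraries, and at 465.4 and 527.2 CPM in the stiff and 417.9 and 432.6 CPM in the soft Cav1KO libraries. The Cav1KO libraries were all lower, with -0.59 (adjusted p = 0.000648) on the soft hydrogel. Itgb1, integrin beta 1, which was chosen after its values were seen, was higher in Cav1KO cells by 0.68 and 1.09 on the log2 scale.

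For the stiffness effect, Pdgfrb, a receptor tyrosine kinase that also stood among the fibroblast markers, had the largest fall in Cav1KO cells (log2 -1.43, adjusted p = 4.74e-05), and Scarb1, a cholesterol receptor, the largest rise (log2 0.45, adjusted p = 0.000489). Between the stiffness effects of the genotypes, 2 of the 19 partners were called, beside 10.5% of all genes called in either direction. Abl1, a tyrosine kinase, had a difference of 0.97 (adjusted p = 0.0293) and Scarb1 of -0.52 (adjusted p = 0.0178). Both calls were lost without WT stiff replicate 1, WT soft replicate 1 or either Cav1KO soft library. The Abl1 call was also lost without WT soft replicate 2 or Cav1KO stiff replicate 2. In limma without a mean-variance trend Abl1 had an adjusted p of 0.0513. Over partners and relatives together, the 3 calls of this kind rose in number without Cav1KO stiff replicate 1. They fell without either WT soft library, either Cav1KO soft library, WT stiff replicate 1 or Cav1KO stiff replicate 2. The calls over all genes moved in the same directions in these fits. The 12 calls for stiffness in WT cells fell in number without WT soft replicate 1, as those over all genes did.

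**Figure D5:**
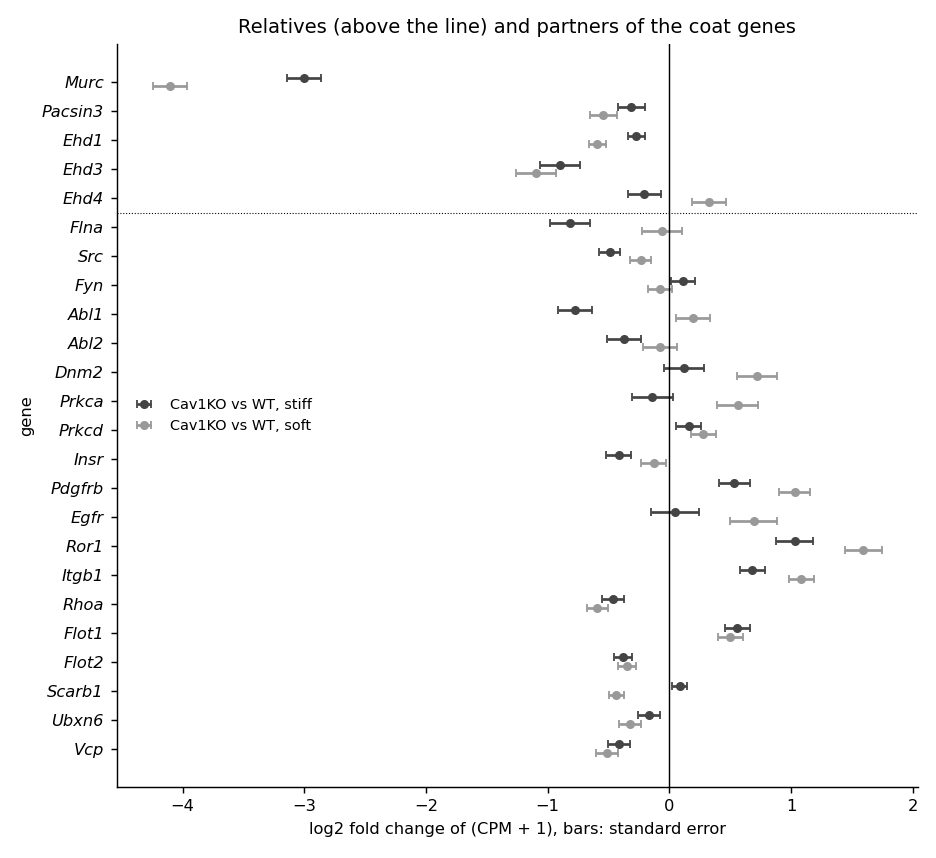
Log2 difference between Cav1KO and WT cells on the log2(CPM + 1) scale (x axis, bars for the SE) of the 5 listed relatives and 19 listed partners of the coat genes (y axis), dark on the stiff and light on the soft hydrogel. Murc lies farthest to the left (-3.00 and -4.10) and Ror1 farthest to the right (1.03 and 1.59).

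Clathrin coat genes, the machinery of the other well-known coated pit, served as a second list, with 27 of 32 genes listed. On the stiff hydrogel 5 were higher and 4 lower in WT cells (median 0.14), where 22.1% and 26.3% of all genes were called, and 5 were higher and 9 lower in Cav1KO cells (median -0.18), where 27.9% and 28.2% were. Between the genotypes 3 were higher and 15 lower in Cav1KO cells on the stiff hydrogel (median -0.28), beside 25.0% and 26.6% of all genes, and 6 were higher and 9 lower on the soft hydrogel (median -0.10), beside 24.1% and 29.9%. Dab2, a clathrin adaptor for integrins and LDL receptors, had the largest rise. It was at 27.1 and 26.4 CPM in the stiff and 36.6 and 33.7 CPM in the soft WT libraries, and at 128.3 and 121.3 CPM in the stiff and 199.8 and 201.1 CPM in the soft Cav1KO libraries. The genotypes did not overlap, and the log2 difference was 2.18 (SE 0.08, adjusted p = 1.26e-07) on the stiff and 2.48 (SE 0.08, adjusted p = 6.08e-08) on the soft hydrogel. Of 6 macrophage markers only Cd68 and Cd14 were listed, and their sum, nearly all of it Cd14, was also higher in the Cav1KO libraries. Ptprc, Csf1r, Emr1 and Lyz2 were not listed. The part of Cd14 in the Dab2 result was not tested. Hip1r, which links clathrin to actin, fell by 1.40 on the log2 scale in Cav1KO cells on the stiff hydrogel (adjusted p = 0.000644), and Eps15, an endocytic adaptor, by 0.82 on the soft hydrogel (adjusted p = 0.00112).

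Within the clathrin list, Dnm1, the gene of dynamin-1, had the largest fall on the stiff hydrogel, with -0.79 (adjusted p = 0.000221) in WT and -0.81 (adjusted p = 0.000120) in Cav1KO cells. Hip1r had the largest rise in WT cells (log2 0.70, adjusted p = 0.0234), which was lost without WT stiff replicate 1, WT soft replicate 1 or WT soft replicate 2 (adjusted p up to 0.139), and Necap1 in Cav1KO cells (log2 0.78, adjusted p = 0.000175). The 9 clathrin coat genes called for stiffness in WT cells fell in number without WT soft replicate 1, and the 14 in Cav1KO cells without Cav1KO soft replicate 1. For the genotype, the 18 calls on the stiff hydrogel fell in number without WT stiff replicate 1. The 15 on the soft hydrogel fell without WT soft replicate 1 or Cav1KO soft replicate 2. The calls over all genes also fell in number in each of these fits.

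The genes with the pattern most like each member were ranked by Pearson's r of log2(CPM + 1) over the 8 libraries, among 10057 other genes with a mean of at least 5 CPM. This is a description, since the libraries fall into 4 groups and share their size factors. For Cav1 the highest r was that of Hspb1, a small heat shock protein gene (r = 0.9995), followed by the processed pseudogene Rbpsuh-rs3 and by Zic1. For Cav2 the closest were Rhoa (r = 0.997), Elovl4 and Mrpl9, and for Ptrf they were Sox9 (r = 0.997), Iqsec1 and Zc3h12b. Prkcdbp was closest to Tnfrsf11b (r = 0.998), the osteoprotegerin gene, to Nr4a1 and to Vps45, and Sdpr to Pabpc1 (r = 0.994) and Ndufa10. Ehd2 was closest to Tle2 (r = 0.997), Tmem140 and Mxd4, and Pacsin2 to Cul1 (r = 0.982), Msh3 and Pcdh7. An r of at least 0.95 was reached by 460 genes for Cav1, 329 for Cav2, 327 for Ehd2, 202 for Prkcdbp, 103 for Ptrf, 38 for Sdpr and 27 for Pacsin2.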

How the data were processed

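The authors sequenced poly(A) RNA (single reads, 60 nt). The deposited values are TMM-normalized CPM, a signal equal to the reads of a gene divided by a size factor of its library. GRCm38, CASAVA 1.8.2, cutadapt and RSEM 1.2.3 are named in the submitters' processing notes, with no role given. All values (100%) were whole multiples of a step per library, within a tolerance of 0.02, which gave the reads behind them (17089836 to 19944952 per library).

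Groups follow the genotype and matrix given in the labels. The 12494 genes that reached 1 CPM in 2 or more libraries entered a limma 3.58.1 fit (R 4.3.3) of log2(CPM + 1) over all 8 libraries, with variances moderated toward a trend on the mean (4 residual degrees of freedom). The p-values are two-sided and were adjusted after Benjamini and Hochberg over all genes, with a threshold of 0.05. Fold changes on this scale understate those of low genes. edgeR 4.0.16 and DESeq2 1.42.0 were run on the recovered reads as alternatives, beside other pseudocounts, filters, scalings, a replicate block and leaving out each library. Genes were matched by identifier to the GENCODE M21 annotation of GRCm38 (12451 of 12528), which gave coordinates and transcript lengths. Promoters are from RefSeq, for 6 of the 7 members, and Prkcdbp had no entry.

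The members and the lists of relatives, partners, clathrin coat genes and cell type markers were chosen with earlier results of these data known. The genes named are all members, the called gene with the largest rise and with the largest fall per list and comparison, the 3 genes most like each member, and the tested genes within 500 kb of Cav1. Of these, 1 gene is not reported here. Scripts were tested on simulated data.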

Additional observations from a re-analysis of the deposited data

How the results depend on the processing

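Over 18 alternatives for each of 35 log2 values of the 7 members, 602 results kept their direction and their side of the threshold, 16 lost a call, 6 gained one and 6 changed sign. The values that changed sign were never called, and the cause was not tested. They were the stiffness effect in Cav1KO cells without Cav1KO soft replicate 1 for Cav1, on 1 to 8 reads per library (-0.17, and 0.26 without replicate 2), and without Cav1KO stiff replicate 1 for Sdpr (-0.20, and 0.30 without replicate 2), the difference between stiffness effects for Prkcdbp without Cav1KO soft replicate 1 (0.0041) and for Pacsin2 without WT stiff replicate 1 (-0.023, and 0.33 without replicate 2), and the genotype effect of Ehd2 on the stiff hydrogel under median centring (0.030) and without Cav1KO stiff replicate 2 (0.044, and -0.097 without replicate 1). When each library was left out in turn, the members called numbered 2 to 4 for stiffness in WT cells, 3 to 4 in Cav1KO cells, 0 to 2 for the difference between stiffness effects, 4 to 6 for the genotype on the stiff and 5 to 6 on the soft hydrogel. Relatives and partners called numbered 6 to 15, 12 to 16, 0 to 11, 12 to 16 and 13 to 18 in the same order, and clathrin coat genes 4 to 13, 4 to 19, 0 to 9, 10 to 18 and 9 to 17. The number called over all genes also changed with the library left out. For the difference between stiffness effects it rose without Cav1KO stiff replicate 1 and fell when any other library was left out. For this difference, the highest counts of members, of relatives and partners and of clathrin coat genes also came without Cav1KO stiff replicate 1. The 2 clathrin coat genes called for the difference between stiffness effects became 1 with a pseudocount of 0.5 CPM, 0 without a mean-variance trend and 1 in edgeR. Over all genes the 1309 calls of this kind became 1115, 705 and 902 in the same order.

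The labels tie the replicate numbers to no shared batch, and the differences between replicates 1 and 2 correlated across genes at -0.37 to 0.42 between groups (0.42 between WT stiff and Cav1KO stiff), so the numbers were not taken to pair the libraries. The fit with the replicate number as a replicate block changed no call of a member, with 4, 4, 0, 5 and 6 members called. Lengths from the union of exons in place of the longest transcript lowered the level per kb of Cav1 in WT stiff cells from 369 to 295 CPM. For the other named genes, 600 values kept their call, 47 lost it and 1 gained it. The lowest member other than Cav1 had 309 reads, so among the members depth limits the values of Cav1 in Cav1KO cells. Among the other named genes it also limits Murc, Ehd3 and Ror1, and with 2 libraries a group an interval on the log2 scale that includes 0 leaves small differences undetected.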
